A study of Homo sapiens with 7 samples.

Results

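The nuclear-encoded genes of oxidative phosphorylation (OXPHOS) were read from RNA-seq of NGP cells, which derive from a human neuroblastoma and carry many copies of MYCN, and of NGP lines mutated in ARID1A. The genes were taken by symbol alone. They were NDUFA, NDUFB, NDUFC, NDUFS and NDUFV genes for complex I, SDHA to SDHD for complex II and the UQCR genes for complex III. For complex IV they were the COX5 to COX8 genes, as the rule matched no COX4 gene, and for complex V the ATP5 genes. The rule found 80 of the 28517 entries in the deposited tables: 37 for complex I, 4 for complex II, 8 for complex III, 14 for complex IV and 17 for complex V. Of these, 74 had a mean of at least 0.5 RPKM (reads scaled by transcript length and by the total count) over the 6 control and ARID1A-/- libraries and entered the tests. Complexes I, II and III were tested in full, complex IV with 9 genes and complex V with 16. NDUFA4 is counted under complex I by its name, although it is now regarded as a subunit of complex IV.

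Oxidative phosphorylation is the route by which the inner mitochondrial membrane turns the electrons of NADH and succinate into ATP. Complex I (NADH dehydrogenase) and complex II (succinate dehydrogenase, which is also an enzyme of the TCA cycle) pass electrons to ubiquinone, complex III passes them to cytochrome c, and complex IV passes them to oxygen. The proton gradient built up by complexes I, III and IV drives the ATP synthase, complex V. A small set of core subunits is encoded in mitochondrial DNA and all others in the nucleus. Inherited loss of SDH subunits is known to cause paraganglioma and phaeochromocytoma, tumours of which some are of the same sympathetic lineage as neuroblastoma.

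The 7 libraries were 2 of ARID1A-/- line 1, 2 of ARID1A-/- line 2, 1 of an ARID1A+/- line and 2 of control NGP cells. ARID1A is a DNA-binding subunit of BAF, a complex of the SWI/SNF family that moves nucleosomes. All cells were grown in the same serum-containing medium with puromycin, which the control cells received too. In each group with 2 libraries, 1 was made with a SMARTer Low Input kit and the repeat with KAPA mRNA HyperPrep, the kit also used for ARID1A+/- cells. Where 2 values of a group are given below, the SMARTer library comes before the KAPA library. The labels used here do not say how the mutations were made, whether each line is a single clone, or whether repeat libraries stand for separate cultures; p-values therefore reflect the spread of these libraries alone, and that may be technical.

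Library totals lay between 24445301 and 43644361 counts, and entries named for ribosomal RNA took from 1.952% to 2.645% of them. ARID1A itself had 16.7 and 17.2 RPKM in line 1, 14.2 and 13.8 in line 2, 19.9 in ARID1A+/- cells, and 22.3 and 22 in control cells, so its RNA was lower but still present in the ARID1A-/- lines, and the RNA level does not show whether protein was made. Among the neuroblastoma markers, HAND2 had between 276 and 349 RPKM in every library and MYCN between 606 and 3663 RPKM. MYCN had 1435 and 1063 RPKM in line 1, 2343 and 606 in line 2, and 783 in ARID1A+/- cells. Control cells had 3663 and 1226 RPKM, so MYCN was below the control library of the same kit in every mutant library. PHOX2A was above the same-kit control in every mutant library, and GATA3 in all but the SMARTer library of line 1. CHGA had 239 and 239 RPKM in line 1, 153 and 195 in line 2 and 137 in ARID1A+/- cells, against 115 and 79.8 RPKM in control cells, so it was higher in every mutant library than in either control library. TH did not exceed 0.456 RPKM in any library and was lower in every mutant library, at most 0.0634 RPKM, than in either control library. DBH had 1.38 and 5.17 RPKM in line 1, against 0.407 and 0.0593 in control cells and at most 0.132 in the other mutant libraries. Of the markers of other cells, PECAM1 was at 0 in all 7 libraries, and PTPRC, SOX10 and COL1A2 did not exceed 0.038 RPKM. The sum of 6 fibroblast markers was 191 and 214 RPKM in line 1, 46.65 and 41.9 in line 2, 79.35 in ARID1A+/- cells and 80.1 and 80.4 in control cells, most of it COL1A1 in line 1. The sum hid single markers that went opposite ways. In ARID1A+/- cells COL1A1 had 17.09 RPKM, below both control libraries, while PDGFRA, PDGFRB, LUM and DCN were above both. There PDGFRB had 14.01 RPKM and LUM 13.73, against 3.58 and 1.72 in the KAPA control library. In line 2 COL1A1 had 30.3 and 19.9 RPKM, against 60.2 and 62.6 in control cells. DCN had 4.02 and 3.74 RPKM there, against 0.301 and 0.0326, and LUM was also higher. The part of these differences in the OXPHOS values was not tested.

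The 74 tested OXPHOS genes had a median level of 55.1 RPKM. The 80 genes together took 0.778% and 0.800% of the counts in line 1, 0.741% and 0.778% in line 2, 0.861% in the ARID1A+/- library, and 0.771% and 0.937% in control cells. The KAPA library of the control cells held the largest share and the SMARTer library of line 2 the smallest. Mean levels of the tested genes, per length, ran from 4.0 RPKM for ATP5S, a coupling factor that is not a core subunit of the synthase, to 619 RPKM for ATP5B, the catalytic beta subunit of ATP synthase. The median of the tested genes was 41.2 RPKM in complex I, 22.6 in complex II, 61.7 in complex III, 199 in complex IV and 125 in complex V. ATP5S had 3.43 and 4.55 RPKM in line 1, 3.39 and 3.52 in line 2, 4.46 in ARID1A+/- cells, and 4.34 and 4.76 in control cells, with both lines below control cells in each kit and no call. The abundant end of complex I was NDUFS5, a small accessory subunit, with 303 and 282 RPKM in line 1, 265 and 288 in line 2, 378 in ARID1A+/- cells, and 267 and 379 in control cells. Its low end was NDUFV3, an accessory subunit of the NADH-oxidising module, with 13.2 and 10.9 RPKM in line 1, 13 and 11 in line 2, 10.5 in ARID1A+/- cells, and 9.77 and 9.81 in control cells. NDUFS5 was highest in the KAPA libraries of control and ARID1A+/- cells, and NDUFV3 was above the control library of the same kit in all 4 ARID1A-/- libraries, without passing the test. The median SD of log2 values over the 6 libraries was 0.214 for the 74 genes, 0.317 for all 14711 tested genes and 0.244 for the 5845 genes with a mean of at least 10 RPKM.

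The isoforms of cytochrome c oxidase that these cells used were those found in most tissues. COX6A1, the widely expressed form of a regulatory subunit, had 377 and 305 RPKM in line 1, 452 and 384 in line 2, 268 in ARID1A+/- cells, and 373 and 403 in control cells, whereas COX6A2, its heart and skeletal muscle form, was listed at 0 in all 7 libraries. COX7A2 had between 187 and 226 RPKM, against at most 0.0951 RPKM for COX7A1, its heart and muscle form. COX8A had between 261 and 365 RPKM, whereas COX8C did not exceed 0.462 RPKM. COX6B1 and COX7B were likewise at 82.5 RPKM or more in every library, against at most 0.0699 RPKM for COX6B2 and 0.0637 RPKM for COX7B2, which are known from testis. With ATP5L2, a rarely expressed copy of the synthase gene ATP5L that did not exceed 0.0512 RPKM, the 5 minor isoforms were the 6 genes left out of the tests. The lowest tested COX gene was COX5B, a zinc-binding subunit, with 79.8 and 75.7 RPKM in line 1, 61.7 and 68.3 in line 2, 68.3 in ARID1A+/- cells, and 66.2 and 94.9 in control cells. The 4 muscle markers (ACTA1, MYH7, TNNT2 and CKM) summed to 6.23 and 2.83 RPKM in line 1, 1.16 and 2.18 in line 2, 1.45 in ARID1A+/- cells and 1.86 and 1.1 in control cells. Most of the sum in line 1 was TNNT2, at 5.68 and 2.35 RPKM, against 1.10 and 0.566 in control cells. ACTA1 had 0.486 and 0.421 RPKM in line 1, against 0.599 and 0.384, and CKM was below both control libraries there. MYH7 did not exceed 0.0114 RPKM.

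The exception was COX4I2, the lung-type and hypoxia-responsive isoform of COX4, whose symbol lies outside the rule and which stands on the list of further subunits. It had 2 and 11 counts in line 1, 1 and 0 in line 2 and 5 in ARID1A+/- cells, against 132 and 31 counts in control cells. In RPKM these were 0.0706 and 0.505, 0.0359 and 0, and 0.221, against 4.42 and 1.85 in control cells, so all ARID1A-mutant libraries lay below both control libraries. It passed the filter on low values through the control libraries alone, so no test of it is read. The main isoform, COX4I1, had 67.9 and 63.2 RPKM in line 1, 59.5 and 53.6 in line 2, 73.4 in ARID1A+/- cells, and 80.6 and 71.4 in control cells, more than 10 times the COX4I2 level in every library, and it fell in line 2 (log2 fold change -0.46 ± 0.11, edgeR adjusted p = 0.0377).

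**Figure D1:**
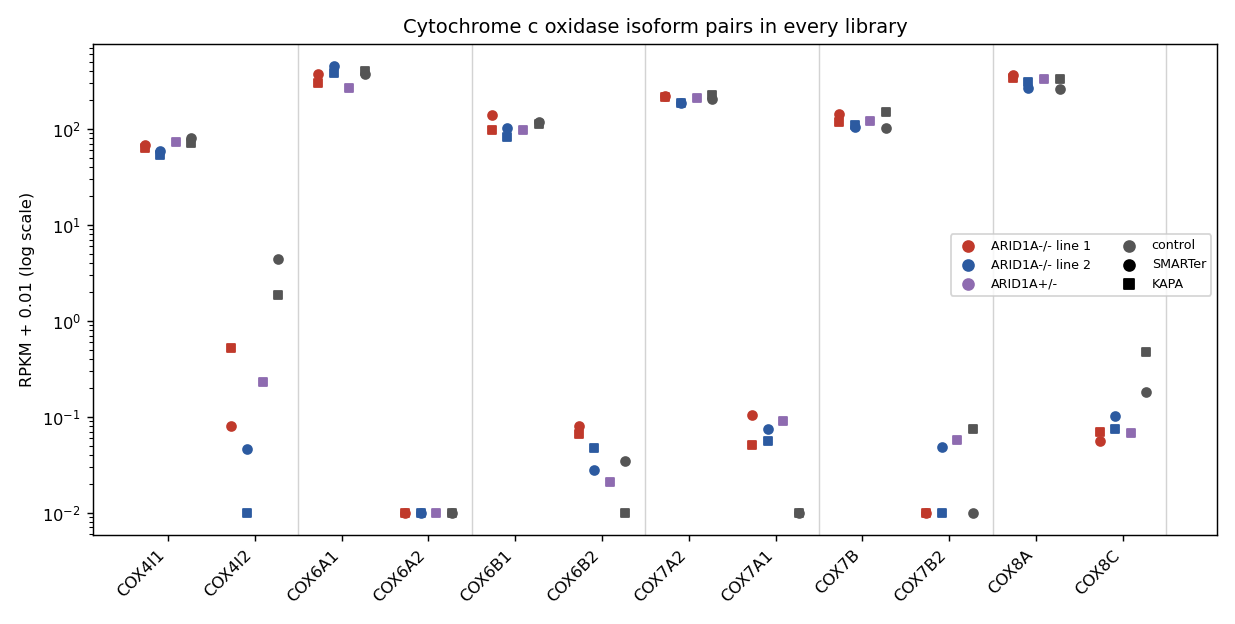
RPKM + 0.01 (log axis) of COX4I1 and COX4I2 and of the 5 pairs of cytochrome c oxidase isoforms among the OXPHOS genes, with the common isoform left of the minor one; colours mark the group, circles SMARTer and squares KAPA libraries, and no error is drawn because each point is 1 library. The common isoforms lie above 50 RPKM in every library, the minor ones below 0.5 RPKM, and COX4I2 is the exception, at no more than 0.505 RPKM in the mutant libraries and at 4.42 and 1.85 RPKM in control cells.

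The mean of both ARID1A-/- lines was first set against control cells, so a gene could be called through 1 line more than the other. In that comparison 4 of the 74 OXPHOS genes fell and 0 rose (edgeR's quasi-likelihood test on counts, adjusted p under 0.05 over all 14711 genes). UQCRH of complex III and ATP5E, ATP5A1 and ATP5H of complex V fell, by at most 1.5-fold. All 4 were also called in line 2 alone, but in line 1 alone only UQCRH was. There ATP5E, ATP5A1 and ATP5H were lower without a call (edgeR adjusted p = 0.0733, 0.0615 and 0.276). In bulk RNA, fewer cells of a kind and less RNA per cell cannot be told apart. Among all tested genes 14.2% were called, 9.57% lower and 4.64% higher, so 4 of 74 (5.41%) was a smaller share than in the background; among genes with a mean of at least 10 RPKM the share was 11.9%. At an unadjusted p under 0.05 the counts were 8 lower and 0 higher, and the count of genes that rose was also 0 with DESeq2 and with limma. In all 4 within-kit differences 15 OXPHOS genes (20.3%) were below control, against 20.2% of all genes, and 3 (NDUFS7, NDUFV1 and NDUFV3; 4.05%) were above, against 21.2%. The median log2 fold change of the OXPHOS genes was -0.08, against 0.02 for all genes. By complex it was 0.00 for I, -0.09 for II, -0.11 for III, -0.13 for IV and -0.21 for V.

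UQCRH, the hinge protein of complex III that binds cytochrome c1, had 94.2 and 148 RPKM in line 1, 103 and 138 in line 2, 226 in ARID1A+/- cells, and 135 and 205 in control cells. Within each kit both ARID1A-/- lines lay below control cells, and the ARID1A+/- library was above both control libraries. The log2 fold change was -0.50 ± 0.09 (edgeR adjusted p = 0.0172). UQCRHL, a near-identical copy, also fell (-0.49 ± 0.11, edgeR adjusted p = 0.0337), and reads may be split between the copies. The counts of UQCRH and UQCRHL added together differed from the control of the same kit by -0.51 and -0.49 in line 1 and by -0.44 and -0.56 in line 2, on the log2 scale.

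ATP5E, the epsilon subunit in the central stalk of the synthase, had 332 and 353 RPKM in line 1, 264 and 326 in line 2, 335 in ARID1A+/- cells, and 408 and 541 in control cells. All 5 mutant libraries were below both control libraries. The log2 fold change was -0.58 ± 0.11 (edgeR adjusted p = 0.0191). The readthrough entry SLMO2-ATP5E, added after its values were seen, contains ATP5E and may share its reads: it had 7824 and 6635 counts in line 1 and 6641 and 5495 in line 2, against 10016 and 7397 in control cells, and it fell too (-0.51 ± 0.10, edgeR adjusted p = 0.0236).

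ATP5A1, the alpha subunit that forms the catalytic head with ATP5B, had 153 and 189 RPKM in line 1, 179 and 162 in line 2, 289 in ARID1A+/- cells, and 234 and 247 in control cells. The ARID1A-/- libraries lay below both control libraries and the ARID1A+/- library above them. The log2 fold change was -0.51 ± 0.11 (edgeR adjusted p = 0.0318). ATP5H, subunit d of the peripheral stalk that holds the head still, had 205 and 249 RPKM in line 1, 173 and 198 in line 2, 263 in ARID1A+/- cells, and 234 and 288 in control cells. Here line 1 and control cells overlapped across kits, while within each kit all ARID1A-/- libraries were below control. The log2 fold change of ATP5H was -0.36 ± 0.09 (edgeR adjusted p = 0.0457).

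**Figure D2:**
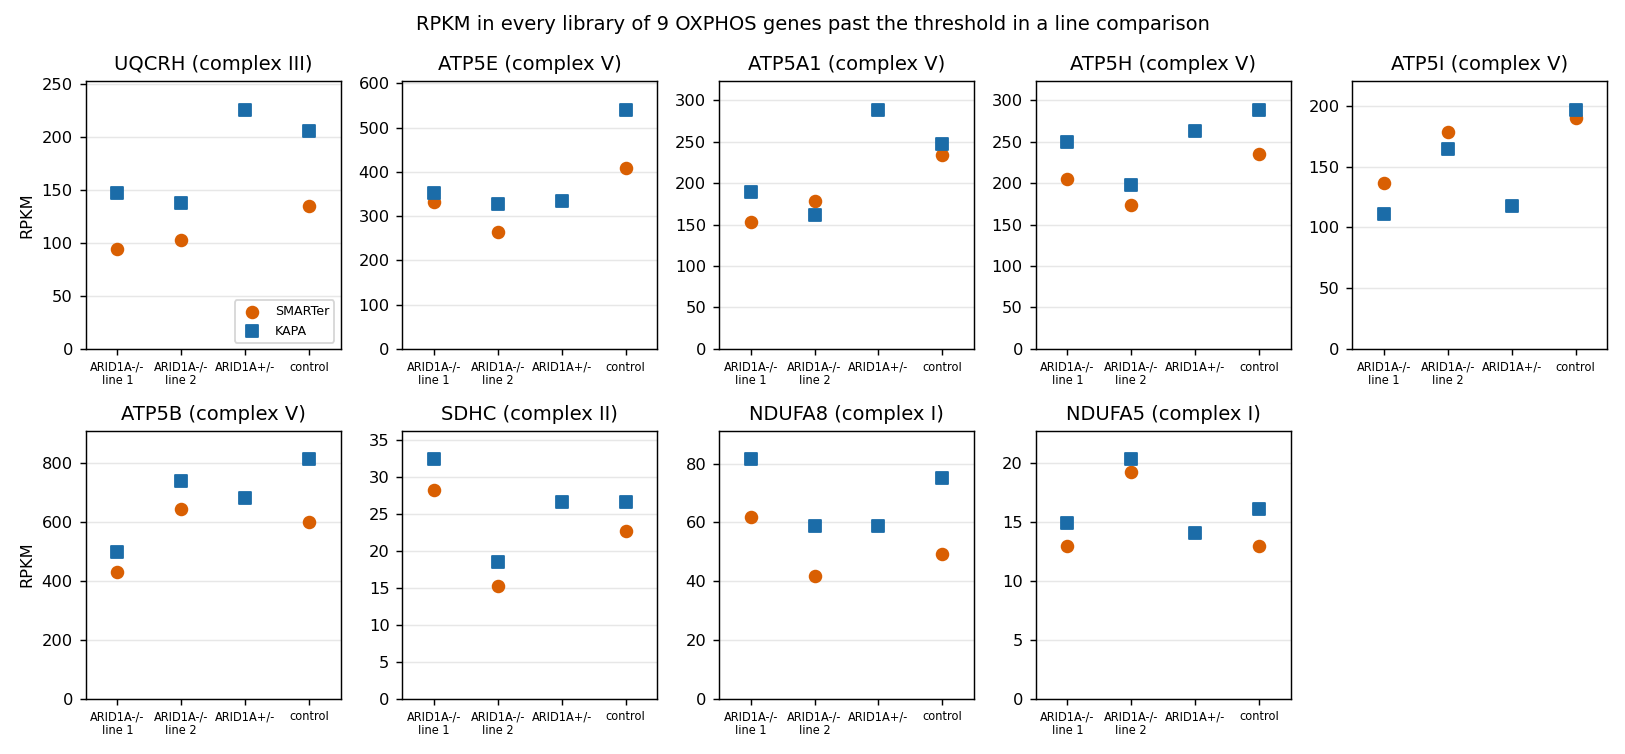
RPKM (linear axes from 0) of 9 OXPHOS genes that passed the threshold in at least 1 comparison of lines; each point is 1 library, circles SMARTer and squares KAPA, so no error is drawn. UQCRH, ATP5E, ATP5A1 and ATP5H are lower in both ARID1A-/- lines than in the control library of the same kit, SDHC is lowest in line 2, and ATP5B is lowest in line 1.

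The promoters of these 4 genes are shown because the genes fell together. Each window holds 250 bases before and 50 bases after the annotated start, 5′ to 3′ on the gene's strand, from RefSeq (GRCh38.p14), with capitals for a match to CCGGAAG, the core motif of ETS factors such as GABP, on either strand. They are chr1:46303448-46303747 (plus strand) for UQCRH, chr20:59032286-59032585 (minus strand) for ATP5E, chr18:46104178-46104477 (minus strand) for ATP5A1 and chr17:75046920-75047219 (minus strand) for ATP5H.
UQCRH: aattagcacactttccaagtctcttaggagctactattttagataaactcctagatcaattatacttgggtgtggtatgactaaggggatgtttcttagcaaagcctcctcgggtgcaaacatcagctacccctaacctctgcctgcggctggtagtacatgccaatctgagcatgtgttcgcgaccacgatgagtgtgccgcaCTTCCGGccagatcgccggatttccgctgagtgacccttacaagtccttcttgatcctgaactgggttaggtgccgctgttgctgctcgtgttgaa
ATP5E: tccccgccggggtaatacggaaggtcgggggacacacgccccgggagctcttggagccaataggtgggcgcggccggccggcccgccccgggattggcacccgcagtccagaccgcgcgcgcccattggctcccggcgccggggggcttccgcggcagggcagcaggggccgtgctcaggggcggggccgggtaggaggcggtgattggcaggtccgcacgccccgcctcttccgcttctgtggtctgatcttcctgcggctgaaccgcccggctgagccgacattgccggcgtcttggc
ATP5A1: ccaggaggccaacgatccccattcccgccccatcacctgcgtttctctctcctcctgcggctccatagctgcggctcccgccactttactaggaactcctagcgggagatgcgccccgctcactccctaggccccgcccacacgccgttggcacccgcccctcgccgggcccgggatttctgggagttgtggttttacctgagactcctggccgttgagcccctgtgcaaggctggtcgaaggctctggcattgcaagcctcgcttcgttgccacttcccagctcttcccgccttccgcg
ATP5H: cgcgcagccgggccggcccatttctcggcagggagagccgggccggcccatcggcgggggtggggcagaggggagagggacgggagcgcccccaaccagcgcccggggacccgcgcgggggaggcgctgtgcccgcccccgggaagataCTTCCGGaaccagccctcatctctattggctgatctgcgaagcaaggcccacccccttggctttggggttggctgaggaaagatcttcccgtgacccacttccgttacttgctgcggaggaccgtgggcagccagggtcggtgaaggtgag
The match begins at base -46 from the start in UQCRH and at -101 in ATP5H, and these letters are not in the windows of ATP5E and ATP5A1. None of the 4 windows holds the NRF1 motif, GCGCA and GCGC with any base between them (NRF1 is a regulator of respiratory genes), or AAGATGGC (YY1). Of the 80 OXPHOS genes 65 had a promoter in the RefSeq table; on either strand, the NRF1 letters stood in 24.6% of these and in 12.2% of the 10258 promoters of tested genes, the ETS letters in 27.7% and 19.5%, and the YY1 letters in 16.9% and 5.5%. Over all 27305 promoters in the table the shares were 6.3%, 10.7% and 3.0%. At least 1 of the 3 motifs stood in 55.4% of the OXPHOS promoters and in 32.6% of those of tested genes. These are letter matches, some of which can overlap, and binding was not measured.

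Line 1 alone was then compared with control cells, and 3 OXPHOS genes fell and 0 rose: ATP5I, ATP5B and UQCRH. The background in this comparison was 13.0% of genes called (8.27% lower, 4.75% higher; 11% among genes of at least 10 RPKM), and the OXPHOS share was 4.05%. At an unadjusted p under 0.05 there were 5 lower and 3 higher, and no gene rose with DESeq2 or limma either. ATP5I, subunit e of the membrane part, which takes part in pairing the synthase into dimers, had 136 and 111 RPKM in line 1, 178 and 165 in line 2, 117 in ARID1A+/- cells, and 189.8 and 197 in control cells. Line 1 and the ARID1A+/- library lay below line 2 and control cells. Its log2 fold change in line 1 was -0.64 ± 0.13 (edgeR adjusted p = 0.0258).

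ATP5B, the most abundant OXPHOS transcript, had 428 and 496 RPKM in line 1, 642 and 739 in line 2, 681 in ARID1A+/- cells, and 599 and 811 in control cells. Both line 1 libraries were below all other libraries, and the log2 fold change was -0.59 ± 0.13 (edgeR adjusted p = 0.0348). UQCRH differed by -0.49 ± 0.11 (edgeR adjusted p = 0.0345). The median of the 74 genes was 0.06, against 0.01 for all genes, with complex I at 0.11 and complex V at -0.08.

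The direction of the OXPHOS genes as a group in line 1 differed between the kits. In the SMARTer libraries 57 of 74 genes were above control (median log2 difference 0.21), while in the KAPA libraries 59 of 74 were below (median -0.11). Complex I had 33 of 37 genes above control with SMARTer and 27 of 37 below with KAPA. All genes had medians of -0.01 and 0.02 in these 2 differences. Only 16 of the 74 genes (21.6%) were below control in both kits and 14 (18.9%) above in both, against 34.3% and 35.9% of all tested genes. SMARTer minus KAPA had a median of 0.19 in line 1, 0.03 in line 2 and -0.15 in control cells, so the kits differed in opposite directions in line 1 and control cells.

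Among the comparisons of lines, line 2 against control cells had the most OXPHOS genes past the threshold, though a smaller share than among all genes. There, 6 genes fell and 0 rose (edgeR), among them ATP5E, SDHC, ATP5A1, ATP5H and UQCRH. Among all genes 14% were called, 8.52% lower and 5.47% higher (11.9% among genes of at least 10 RPKM), against 8.11% of the OXPHOS genes. At an unadjusted p under 0.05 there were 13 lower and 1 higher, and the count that rose was 0 with DESeq2 and limma. The median log2 fold change was -0.22, against 0.02 for all genes, and 61 of 74 genes were below 0. Every complex had a negative median: -0.14 for I, -0.21 for II, -0.29 for III, -0.25 for IV and -0.23 for V.

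In line 2 the 2 kits gave the same direction. With SMARTer 53 of 74 genes were below control (median -0.09) and with KAPA 65 of 74 (median -0.29), where all genes had medians of 0.00 and 0.04. In both kits at once 51 of 74 (68.9%) were below, against 35.6% of all genes, and 7 (9.46%) were above, against 39.2%. Each of the 8 complex III genes and 16 of 16 tested complex V genes had a fitted value below 0 in line 2. Most of these single differences were small, and 68 of the 74 genes did not pass the test.

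SDHC, a membrane anchor of complex II that carries its haem, had 28.2 and 32.3 RPKM in line 1, 15.2 and 18.5 in line 2, 26.6 in ARID1A+/- cells, and 22.6 and 26.6 in control cells. Both line 2 libraries were below all other libraries. Its log2 fold change in line 2 was -0.59 ± 0.12 (edgeR adjusted p = 0.0218). ATP5E differed by -0.72 ± 0.13, ATP5A1 by -0.53 ± 0.13, ATP5H by -0.53 ± 0.11 and UQCRH by -0.52 ± 0.11, with edgeR adjusted p-values of 0.0174, 0.0461, 0.0243 and 0.0279. Line 1 and line 2 were compared with the same 2 control libraries, so these values are given side by side with those of line 1 and not as separate support.

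The other SDH genes did not pass the test in any comparison of lines. SDHA, the flavoprotein that oxidises succinate, had 19.6 and 23 RPKM in line 1, 18.5 and 20.4 in line 2, 26.9 in ARID1A+/- cells, and 19.5 and 27 in control cells. SDHB, the iron-sulfur subunit, had 65.4 and 73.8 RPKM in line 1, 63.2 and 61.5 in line 2, 65.2 in ARID1A+/- cells, and 56.1 and 79.5 in control cells. SDHD, the partner of SDHC in the membrane, had 13.6 and 19.4 RPKM in line 1, 12.9 and 17.6 in line 2, 14.5 in ARID1A+/- cells, and 12.1 and 20.7 in control cells. All 3 had their highest value in the KAPA library of control cells, and line 1 and line 2 each overlapped control cells in SDHB and SDHD. SDHA reads may also be split with the pseudogene entries SDHAP1, SDHAP2 and SDHAP3, none of which passed the test in a comparison of lines.

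In complex III, UQCRH was the only gene of 8 past the threshold in a comparison of lines. UQCRC1, a core protein of the matrix side, had 51.4 and 60.6 RPKM in line 1, 46.5 and 49.2 in line 2, 63.4 in ARID1A+/- cells, and 49.7 and 65.0 in control cells. UQCRC2, the other core protein, had 28.1 and 31.8 RPKM in line 1, 36.5 and 28.1 in line 2, 31.2 in ARID1A+/- cells, and 36.4 and 36.9 in control cells. UQCRFS1, the Rieske iron-sulfur protein that hands electrons to cytochrome c1, had 75.5 and 73.1 RPKM in line 1, 63.8 and 65.3 in line 2, 68.4 in ARID1A+/- cells, and 64.4 and 75.6 in control cells. Line 1 overlapped control cells in UQCRC1 and UQCRFS1. UQCRC2 was below the control library of the same kit in all 4 ARID1A-/- libraries after scaling, by between 0.07 and 0.39 on the log2 scale, and did not pass the test.

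UQCRB, which lies near the ubiquinone site, had 27.2 and 26.7 RPKM in line 1, 28.0 and 20.8 in line 2, 21.6 in ARID1A+/- cells, and 31.3 and 27.7 in control cells. UQCRQ, a small membrane subunit, had 56.5 and 54.1 RPKM in line 1, 38.9 and 61.8 in line 2, 59.7 in ARID1A+/- cells, and 37.9 and 66.6 in control cells. UQCRB was below the control library of the same kit in all 4 ARID1A-/- libraries without passing the test, and in UQCRQ the groups overlapped. UQCR10 had 83.6 and 75.8 RPKM in line 1, 57.4 and 60.9 in line 2, 67.2 in ARID1A+/- cells, and 67.3 and 74.6 in control cells. UQCR11, another small accessory subunit, had 135 and 109.6 RPKM in line 1, 86.8 and 88.3 in line 2, 114 in ARID1A+/- cells, and 97.7 and 118 in control cells. Line 2 held the lowest values of UQCR10 and UQCR11 within each kit, at log2 fold changes of -0.30 ± 0.13 and -0.33 ± 0.16 (edgeR adjusted p = 0.184 and 0.215).

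**Figure D3:**
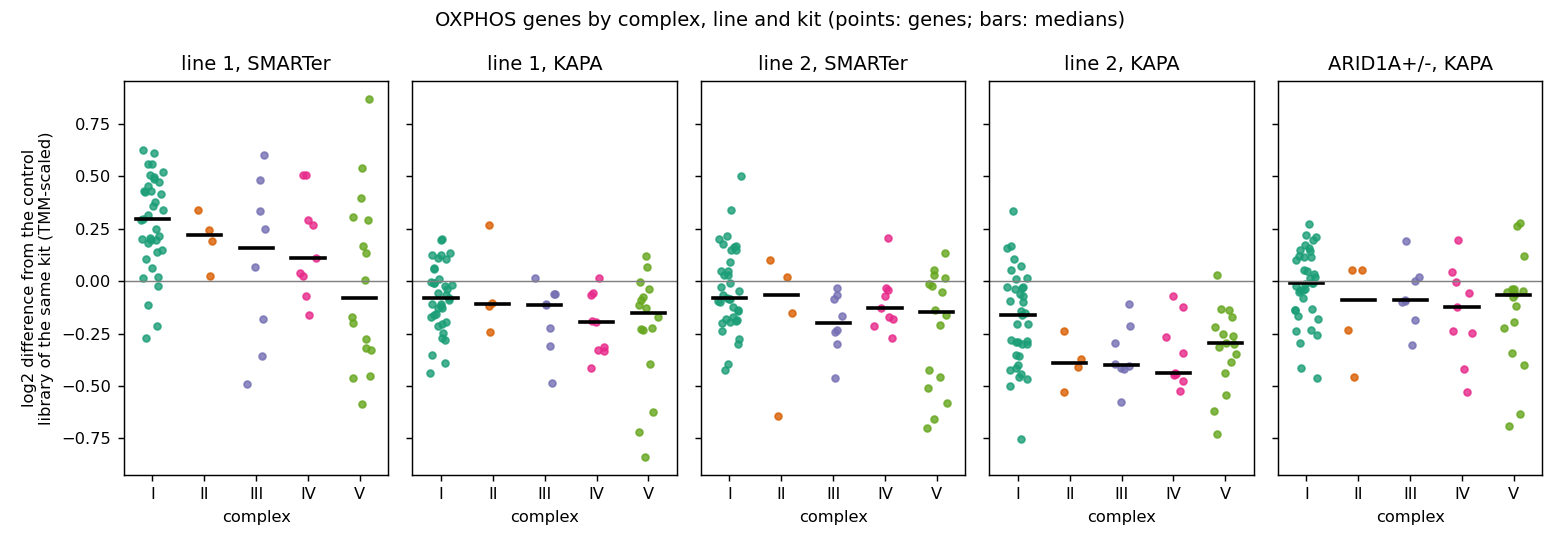
Log2 difference of each tested OXPHOS gene from the control library of the same kit (TMM-scaled counts with 0.5 added), by complex, in 5 panels for the mutant libraries; points are genes, bars are medians over the genes of a complex, and genes are not replicates. Line 1 lies mostly above control with SMARTer (median 0.21) and below with KAPA (-0.11), line 2 lies below with both (-0.09 and -0.29), and the ARID1A+/- library is near 0 (-0.05).

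The ARID1A-/- lines were next compared with each other, where the control libraries enter only through the shared kit term and estimate of spread. The test called 3 OXPHOS genes higher in line 1, among them SDHC and NDUFA8, and 2 lower, ATP5B and NDUFA5 (6.76% in all), against 12.8% of all genes (5.71% higher, 7.10% lower; 11.6% among genes of at least 10 RPKM). SDHC differed by 0.89 ± 0.12 (1.85-fold, edgeR adjusted p = 0.006). ATP5B differed by -0.54 ± 0.13 (edgeR adjusted p = 0.046).

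NDUFA8, an accessory subunit of the intermembrane side of complex I, had 61.9 and 81.4 RPKM in line 1, 41.8 and 58.7 in line 2, 58.8 in ARID1A+/- cells, and 49.1 and 75.0 in control cells. Within each kit line 1 was the highest and line 2 the lowest of the 3 replicated groups, with a log2 fold change between the lines of 0.56 ± 0.13 (edgeR adjusted p = 0.0334). NDUFA5, an accessory subunit of the matrix arm, had 13 and 14.9 RPKM in line 1, 19.3 and 20.3 in line 2, 14.1 in ARID1A+/- cells, and 13 and 16.1 in control cells. Its 2 highest libraries were those of line 2, and the log2 fold change was -0.47 ± 0.12 (edgeR adjusted p = 0.0444).

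Most of the other OXPHOS genes leaned the same way as SDHC in this comparison. The median log2 fold change was 0.23, against 0.00 for all genes, and 64 of 74 genes were above 0. With SMARTer 63 of 74 genes were higher in line 1 (median 0.31) and with KAPA 57 of 74 (median 0.14). In both kits at once 52 of 74 (70.3%) were higher in line 1, against 34.2% of all genes, and 6 (8.11%) were lower, against 34.8%. Medians by complex were 0.17 for I, 0.18 for II, 0.24 for III, 0.26 for IV and 0.23 for V. The OXPHOS genes are not independent samples, and without the SMARTer library of line 1 their median was 0.10. The lean was not particular to them. Of 73 mitochondrial ribosomal protein genes 55 were above 0 (median 0.14), and of 59 cytosolic ones 47 (median 0.09).

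The 3 genes for subunit c, the rotating ring of the synthase, encode the same mature protein with different import signals. ATP5G1 had 107 and 97.7 RPKM in line 1, 68.7 and 81.4 in line 2, 75.3 in ARID1A+/- cells, and 59.6 and 103 in control cells. ATP5G2 had 192 and 172 RPKM in line 1, 157 and 143 in line 2, 183 in ARID1A+/- cells, and 224 and 175 in control cells. ATP5G3 had 53.8 and 61.3 RPKM in line 1, 46.4 and 56.1 in line 2, 50.5 in ARID1A+/- cells, and 44.6 and 66.6 in control cells. ATP5G2 gave from 50.8% to 68.3% of their summed RPKM in every library, and ATP5G1 gave 30.3% and 29.5% in line 1, 25.2% and 29.0% in line 2, 24.4% in the ARID1A+/- library and 18.1% and 29.9% in control cells. The SMARTer library of control cells stood apart from the rest in this split. ATP5G2 was below control in all 4 within-kit differences, with -0.28 ± 0.11 for both lines (edgeR adjusted p = 0.131), and none of the 3 genes passed the test.

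The library kits were compared in the same fit, and the share of OXPHOS genes past the threshold was again below that of all genes. SMARTer libraries were higher than KAPA libraries in 4 genes (NDUFA7, ATP5D, COX6B1 and NDUFS7) and lower in 3 (NDUFB2, NDUFB6 and UQCRH), or 9.46% of the 74, against 13.3% of all genes (7.99% higher, 5.30% lower; 16% among genes of at least 10 RPKM). In all 3 groups 20 genes (27%) were higher in the SMARTer library, against 28.8% of all genes, and 12 (16.2%) lower, against 25.7%. NDUFB2, a small accessory subunit of the membrane arm, had 16.3 and 31.0 RPKM in line 1, 9.73 and 23.4 in line 2, 29.4 in ARID1A+/- cells, and 11.2 and 31.3 in control cells. In each group with both kits its SMARTer value was well below its KAPA value, with a log2 difference of -1.05 ± 0.17 (edgeR adjusted p = 0.0196). NDUFA7, an accessory subunit, had 109 and 58.2 RPKM in line 1, 81.8 and 65.9 in line 2, 57 in ARID1A+/- cells, and 78.4 and 58.5 in control cells, with a log2 difference of 0.72 ± 0.15 (edgeR adjusted p = 0.0335). ATP5D, the delta subunit of the central stalk, had 62.1 and 47.0 RPKM in line 1, 63.8 and 43.9 in line 2, 49.7 in ARID1A+/- cells, and 62.8 and 43.0 in control cells, with 0.67 ± 0.10 (edgeR adjusted p = 0.018).

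The remaining kit differences were smaller. NDUFB6, an accessory subunit of the membrane arm, had 42.3 and 59.0 RPKM in line 1, 38.2 and 60.2 in line 2, 62.7 in ARID1A+/- cells, and 35.2 and 76.9 in control cells, with -0.59 ± 0.15 (edgeR adjusted p = 0.0473). COX6B1, which bridges the monomers of complex IV, had 141 and 98.5 RPKM in line 1, 103 and 82.5 in line 2, 99.0 in ARID1A+/- cells, and 118 and 112 in control cells, with 0.48 ± 0.12 (edgeR adjusted p = 0.0448). NDUFS7, a core iron-sulfur subunit, had 27.6 and 23.1 RPKM in line 1, 27.4 and 22.2 in line 2, 22.7 in ARID1A+/- cells, and 24.5 and 22 in control cells, with 0.41 ± 0.09 (edgeR adjusted p = 0.0366). UQCRH differed by -0.39 ± 0.09 (edgeR adjusted p = 0.0391), so this gene passed the test for kit and for line, while UQCRHL stood at 0.40 ± 0.11 (edgeR adjusted p = 0.0562). The antisense entry NDUFB2-AS1 did not pass the test, and since the sources used here do not say that reads were counted by strand, it cannot be told apart from NDUFB2 where they overlap.

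The ARID1A+/- line has 1 library, so it was set beside the KAPA control library with no test. No OXPHOS gene was over 1.5-fold higher, where 10.1% of all genes were, and 2 were over 1.5-fold lower, where 11% were. After TMM scaling these were ATP5I, with a ratio of 0.620 (95% exact binomial interval 0.589 to 0.653) from 2638 counts against 3272, and ATP5E, with 0.644 (0.620 to 0.669) from 4858 against 5801. The next lowest were COX6A1 at 0.692 and NDUFB5 at 0.726, an accessory subunit of complex I with 19.8 and 25.6 RPKM in line 1, 21.3 and 25.5 in line 2, 21.6 in ARID1A+/- cells, and 21.7 and 30.9 in control cells. The intervals cover counting error alone.

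Among the highest ratios were 1.213 for ATP5A1 (1.190 to 1.236), 1.201 for ATP5D and 1.164 for NDUFB11, a membrane arm subunit encoded on the X chromosome, with 117 and 111 RPKM in line 1, 110.5 and 111 in line 2, 123 in ARID1A+/- cells, and 93.7 and 110.0 in control cells. Of the 4 genes called lower in the mean of both ARID1A-/- lines, ATP5E was also low in the ARID1A+/- library. ATP5H was at 0.948, and UQCRH and ATP5A1 were above 1, at 1.143 and 1.213. The median over the 74 genes was -0.05 on the log2 scale, and 47 were below 0 (63.5%, against 48.9% of all genes). The ARID1A+/- library shares its control library with the KAPA differences of both ARID1A-/- lines.

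Several of the changed genes lie on chromosomes where many neighbouring genes were shifted the same way. For each OXPHOS gene the 10 nearest tested genes on each side in RefSeq order, other genes of the set left out, were read from the same fits; this comparison was chosen after the data were seen. Readthrough entries that run through an OXPHOS gene were kept among the neighbours, such as SLMO2-ATP5E beside ATP5E (-0.40 in line 1 and -0.62 in line 2) and NDUFC2-KCTD14 beside NDUFC2. SDHC lies on chromosome 1. In line 2 the median log2 fold change of its neighbours was -0.33, with 16 of 20 below 0, against -0.59 for SDHC itself. Between the lines the neighbour median was 0.62, against 0.89 for SDHC, and 19 of 20 neighbours were higher in line 1 than in line 2.

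ATP5B on chromosome 12 was at -0.59 in line 1 and the median of its neighbours at -0.55, with 17 of 20 below 0. ATP5I, near the start of chromosome 4, was at -0.64 in line 1 with 15 of its 17 neighbours below 0 (median -0.45), and at -0.69 in the ARID1A+/- library with 13 of 17 below (median -0.35). ATP5E on chromosome 20 was at -0.45 in line 1 and -0.72 in line 2, with neighbour medians of -0.29 and -0.33. ATP5A1 on chromosome 18 was at -0.49 and -0.53, with neighbour medians of -0.31 and -0.16, and in the ARID1A+/- library at 0.28 with a neighbour median of 0.47. ATP5E and ATP5A1 thus had the sign of their neighbour median in both lines, and ATP5B and ATP5I in line 1. In line 2 ATP5B was at -0.06 with a neighbour median of 0.10, and ATP5I at -0.21 with 0.11.

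For UQCRH, ATP5H and NDUFA8 the neighbour median lay on the other side of 0 in the comparisons given here. UQCRH, also on chromosome 1, was at -0.49 in line 1 and -0.52 in line 2, with neighbour medians of 0.12 and 0.07. ATP5H on chromosome 17 was at -0.53 in line 2, with a neighbour median of 0.03 and 10 of 20 neighbours below 0. NDUFA8 on chromosome 9 was at 0.56 between the lines, with a neighbour median of -0.07. NDUFA5 on chromosome 7 was at -0.47 between the lines, and its neighbours leaned the same way, with a median of -0.17 and 13 of 20 below 0. Gene copy number was not measured in these files, and its part in any of these differences was not tested.

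Across the 74 genes the log2 fold change between the lines correlated with the median of the neighbours at Pearson r = 0.66 and Spearman rho = 0.32, and across 13039 other genes at r = 0.24 and rho = 0.27. This was the highest r of the comparisons made. Against control cells r was 0.46 and rho 0.23 in line 1, r was 0.23 and rho 0.09 in line 2, and r was 0.26 and rho 0.18 for both lines together, where 47.3% of the 74 genes had the sign of their neighbour median. The lines share their control libraries. Between kits r was 0.39 and rho 0.28, and for the ARID1A+/- library r was 0.45 and rho 0.36. These are correlations across genes of the same libraries, which are not independent replicates. With the 2 genes farthest from the rest in their neighbour median left out, r was 0.56. With the 5 genes whose neighbour median was past 0.4 in size left out, among them SDHC, ATP5B, COX6A1 and ATP5I, r was 0.21 over 69 genes, so the relation rests largely on those 5. Of the 69, 62 were still above 0, with a median of 0.23.

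**Figure D4:**
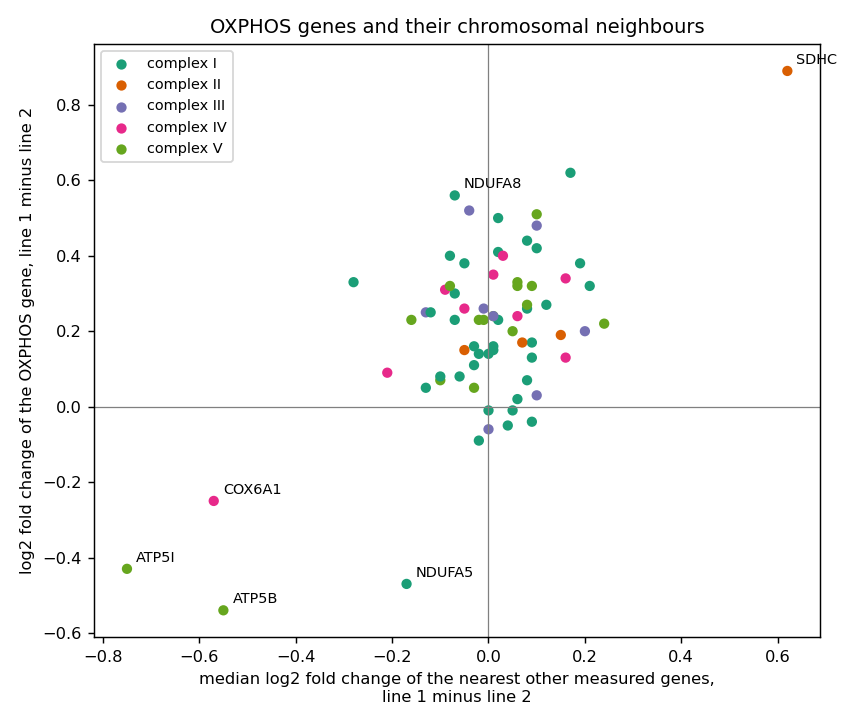
Log2 fold change of 73 of the 74 OXPHOS genes between line 1 and line 2 (vertical axis) against the median log2 fold change of its nearest other tested genes on the chromosome (horizontal axis), coloured by complex; each point is 1 gene from the edgeR fit. SDHC lies at 0.62 on the horizontal axis, ATP5B, COX6A1 and ATP5I at -0.55, -0.57 and -0.75, and most other genes lie above 0 on the vertical axis whatever their neighbours.

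**Figure D5:**
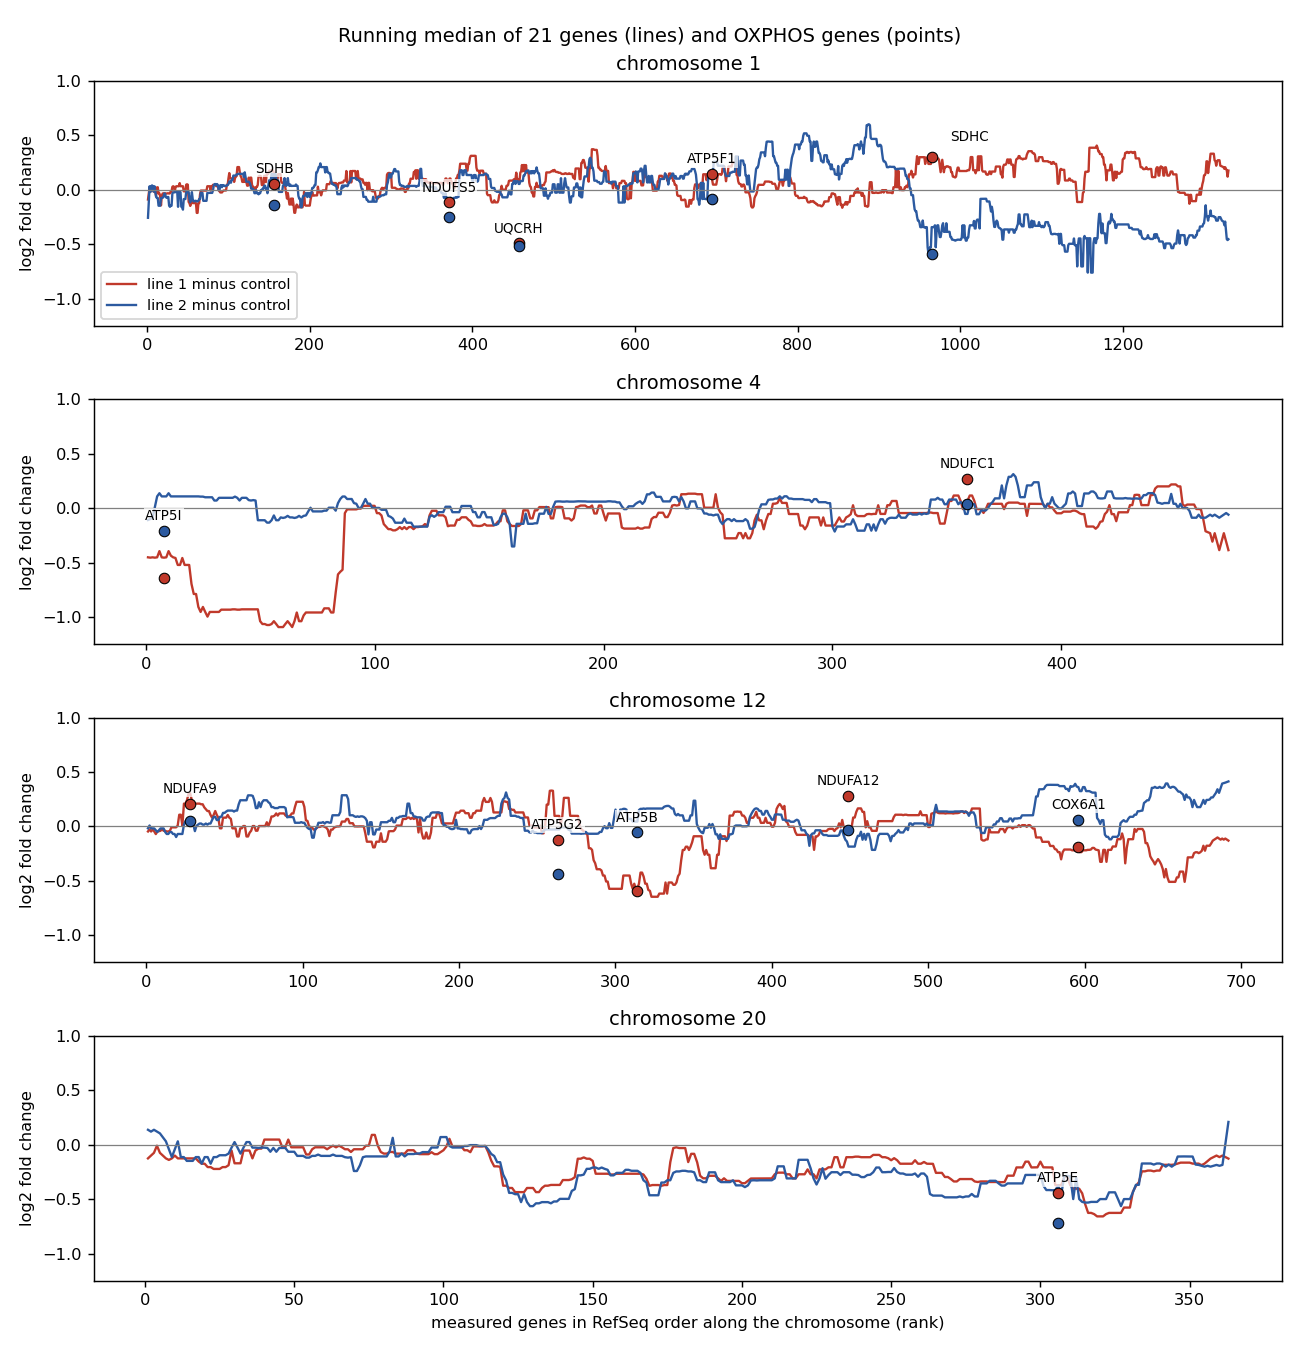
Running median over 21 tested genes of the log2 fold change of line 1 and line 2 against control cells, in gene order along chromosomes 1, 4, 12 and 20 (rank, not base position), with the OXPHOS genes as points; no error is drawn. The part of chromosome 1 with SDHC lies below 0 in line 2 and above 0 in line 1, the part of chromosome 12 with ATP5B and the first genes of chromosome 4 lie below 0 in line 1, and much of chromosome 20, with ATP5E, lies below 0 in both lines.

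Other genes of the pathway were read from the same fits, in which 14.2% of all tested genes passed the test in both lines together, 13% in line 1 and 14% in line 2. Of 12 further subunits whose symbols lie outside the rule, 1 rose and 2 passed as lower in both lines together, 1 of these being COX4I2, which is not read as a result for the reason given above. ATPIF1, the inhibitor that stops the synthase from running backwards, had 47.4 and 38.0 RPKM in line 1, 41.1 and 48.8 in line 2, 32.5 in ARID1A+/- cells, and 25.7 and 29.9 in control cells and rose by 0.65 ± 0.16 (edgeR adjusted p = 0.0407). No gene of this list passed as higher in line 1 or line 2 alone, so ATPIF1 passed only for the mean of both lines. The other gene that was lower, UQCRHL, is described above. Of the 12, 4 passed as lower in line 2, COX4I2 among them. Besides it, COX4I1, C14orf2 (a small synthase subunit, -0.49 ± 0.11) and ATP5SL (-0.52 ± 0.13, now known as a complex I assembly factor) fell, with edgeR adjusted p-values of 0.0377, 0.0314 and 0.0408. The median of the 12, with COX4I2 included, was -0.30 for both lines, against 0.02 over all tested genes.

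Of 51 tested assembly factors, which build the complexes, 1 rose and 0 fell in both lines together: COX20, which helps to mature the COX2 subunit, at 0.50 ± 0.12 (edgeR adjusted p = 0.0359). In line 1 COX20 rose (0.66 ± 0.13, edgeR adjusted p = 0.0243), and ECSIT of complex I assembly (-0.53 ± 0.12, edgeR adjusted p = 0.034) and UQCC of complex III assembly (-0.63 ± 0.12, edgeR adjusted p = 0.0226) fell. No assembly factor passed the test in line 2, and the median of the list was -0.02 for both lines.

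Of 18 regulators of mitochondrial DNA and biogenesis, 3 fell and 0 rose in both lines together. They were PPARGC1B, a coactivator of respiratory genes (-1.22 ± 0.27, edgeR adjusted p = 0.0314), the nuclear receptor ESRRG (-2.0 ± 0.43, edgeR adjusted p = 0.0271) and C10orf2, the mitochondrial DNA helicase (-0.50 ± 0.13, edgeR adjusted p = 0.0463). In line 1 alone 2 genes of this list passed as lower, and in line 2 alone 0. All ARID1A-mutant libraries lay below both control libraries in PPARGC1B, ESRRG and C10orf2. Levels were low for PPARGC1B, at most 1.96 RPKM, and ESRRG, at most 5.67 RPKM. NRF1, GABPA, TFAM and YY1 did not pass the test. Of 16 tested TCA cycle genes, citrate synthase (CS) fell (-0.64 ± 0.10, edgeR adjusted p = 0.0108). It had 93.9 and 88.4 RPKM in line 1, 134 and 127 in line 2, 132 in ARID1A+/- cells, and 161 and 176 in control cells. CS is among the neighbours of ATP5B on chromosome 12, whose median in line 1 was -0.55. CS was at -0.88 in line 1, where it is not read apart from that stretch of genes. In line 2 it was at -0.40 and in the ARID1A+/- library at -0.36. There the neighbours of ATP5B had medians of 0.10 and 0.06. The part of the stretch in the fall of CS was not tested. Fumarate hydratase (FH) fell in line 2 (-0.59 ± 0.14, edgeR adjusted p = 0.0363) and was the only TCA cycle gene called in line 2 alone.

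Of the mitochondrially encoded subunits, entries named MTND5 (complex I) and cytochrome b (complex III) were read. MTND5 had 3166 and 1155 RPKM in line 1, 2299.9 and 1149 in line 2, 1196 in ARID1A+/- cells, and 2282 and 1057 in control cells. Cytochrome b had 7388 and 2185 RPKM in line 1, 5240.4 and 1802 in line 2, 2168 in ARID1A+/- cells, and 5827 and 2019.6 in control cells. In each group SMARTer libraries held more than KAPA libraries, with log2 differences of 1.36 ± 0.14 and 1.78 ± 0.13 (edgeR adjusted p = 0.0106 and 0.0079), and no comparison of lines passed the test for either entry.

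For comparison, the 73 mitochondrial ribosomal protein genes (MRPL and MRPS) had a median of -0.10 in both lines, -0.03 in line 1 and -0.16 in line 2, with 1 gene lower and 0 higher in both lines together, close to the OXPHOS medians of -0.08, 0.06 and -0.22. The 59 cytosolic ribosomal protein genes (RPL and RPS) had -0.52, -0.46 and -0.55, and 44 of them fell in both lines together and 0 rose. The cytosolic ribosomal genes also differed between kits (median 0.54, 40 genes higher in SMARTer libraries), where the OXPHOS median was 0.02, or -0.15 with scaling by library totals, which moved the median of all genes to -0.16.

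The calls of single genes depended on single libraries, whose omission leaves 1 residual degree of freedom. In both lines together the 4 falls became 0 without the SMARTer or the KAPA control library, 1 without the SMARTer and 0 without the KAPA library of line 2, and 5 without either library of line 1. For line 2 the 6 falls became 0 without any 1 of the control or line 2 libraries and 8 without either line 1 library. For line 1 the 3 falls became 0 without either control library and 1 without either line 2 library, and without the KAPA library of line 1 the fit gave 9 genes that rose. Between the lines the 3 genes higher in line 1 became 19 without that same library. SDHC between the lines kept its call in 12 of 13 alternatives (edgeR adjusted p up to 0.0502). Fewer alternatives kept the call of NDUFA5 (5 of 13, and 0 of the 6 that left out 1 library) and ATP5B (4 of 13) between the lines, of ATP5H in both lines together (4 of 13) and of COX6B1 between kits (2 of 12). In both lines together UQCRH kept its call in 9 of 13, ATP5E in 8 and ATP5A1 in 6. ATP5A1 in line 2 kept it in 5 of 13, UQCRH in line 2 and ATP5B in line 1 in 6 of 13 each. NDUFS7 between kits kept it in 4 of 12. No OXPHOS gene past the threshold changed direction in these alternatives, and the genes of the other lists were not run under them.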

How the data were processed

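RNA of 7 NGP libraries was sequenced as 75 bp single-end reads. HISAT2 2.1.0 and the build hg19 are named in the submitters' processing notes; for the counting program, the annotation and the use of strand the answer is not given in the sources used here. The labels call the molecule polyA RNA while the protocol describes removal of ribosomal RNA. Per the file headers, the deposited tables give a read count and an RPKM value for each entry. The RPKM values deposited by the authors equal count divided by length and by total count to within 0.000501%, so they carry no further scaling.

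Counts of the 6 control and ARID1A-/- libraries were fitted with edgeR 4.0.16 in R 4.3.3 (quasi-likelihood test, TMM scaling, group and kit terms, 2 residual degrees of freedom), over the 14711 entries with a mean of at least 0.5 RPKM, with Benjamini-Hochberg adjustment over all of them and a threshold of 0.05. Values with ± are log2 fold changes with their standard error. The kit is the replicate number of the labels: kit differences of the groups correlated at 0.51, 0.628 and 0.447 over 14711 genes, so the kit pairs the libraries and is a block in the fit. Within-kit differences are log2 ratios of TMM-scaled counts with 0.5 added. Each library was counted as a sample because the labels list it as one. The repeat libraries of a group were made with different kits, so variation between cultures and between kits cannot be told apart within a group. Binomial intervals are exact, at 95%, and cover counting error only.

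Alternatives were DESeq2 1.42.0, limma 3.58.1 on log2(RPKM + 1) and log2(RPKM + 0.1), no filter, scaling by library totals or upper quartiles, no kit term, and leaving out each library. Neighbours were placed with the RefSeq gene table (13113 of 14711 entries placed), with 5 and 20 neighbours on each side as further settings. Values per library were given for all SDH, UQCR and ATP5G genes, the COX isoform pairs, the genes past the threshold in each comparison (up to the 8 largest), the 4 genes furthest from control in each direction in ARID1A+/- cells, and the highest and lowest of each complex; isoforms of single pairs are given as ranges. Results of 1 OXPHOS gene and 1 cell type marker are not reported here; the counts and medians include that OXPHOS gene. The OXPHOS genes and the other gene lists were chosen with earlier results of these data known.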

Additional observations from a re-analysis of the deposited data

Results flagged for a closer look

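The difference between ARID1A-/- line 1 and line 2, tested in the edgeR fit, passed the threshold in the 4 OXPHOS genes given here, so that their change against the shared control libraries differed between the lines. For SDHC the log2 difference was 0.89 ± 0.12 (edgeR adjusted p = 0.006), with 0.30 in line 1 and -0.59 in line 2 against control cells. NDUFA8 differed by 0.56 ± 0.13 (edgeR adjusted p = 0.0334), with 0.23 and -0.33. ATP5B differed by -0.54 ± 0.13 (edgeR adjusted p = 0.046), with -0.59 and -0.06. NDUFA5 differed by -0.47 ± 0.12 (edgeR adjusted p = 0.0444), with -0.05 and 0.42. In both kits the direction between the lines was the same for each of the 4 genes.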

How the results depend on the processing

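No OXPHOS gene past the threshold changed direction under any alternative; single genes of the other lists were not run under them. For both lines together, 2 OXPHOS genes fell with limma at either pseudocount and 0 with no replicate block, against 4. For line 1, 5 fell with DESeq2 and 0 with no replicate block, against 3. For line 2, 3 fell with limma at either pseudocount and 0 with no replicate block, against 6. Between the lines, 6 genes were higher in line 1 with DESeq2 and 1 with no replicate block, against 3, and the count of lower genes was 1 with limma, 0 with upper-quartile scaling and 0 with no replicate block, against 2. Between kits, 2 were higher with limma and 2 with scaling by library totals, against 4, and 8 were lower with limma and 7 with library totals, against 3. Scaling by library totals moved the median of all genes between kits from 0.01 to -0.16 and that of the OXPHOS genes from 0.02 to -0.15, and it put the ARID1A+/- median at -0.10, against -0.05. With 1 library left out, the counts ranged over 0 to 5 (fell, both lines), 0 to 9 (rose, line 1), 0 to 4 (fell, line 1), 0 to 1 (rose, line 2), 0 to 8 (fell, line 2), 1 to 19 (higher, line 1 against line 2), 0 to 2 (lower), 0 to 6 (higher, kit) and 0 to 5 (lower, kit). The OXPHOS medians ranged over -0.22 to 0.06 for both lines, -0.11 to 0.19 for line 1, -0.34 to -0.08 for line 2, 0.10 to 0.33 between the lines and -0.08 to 0.12 between kits. The signs for both lines and for line 1 thus depended on the library left out, and those for line 2 and between the lines did not. The cause of these shifts was not tested. With 2 residual degrees of freedom, small changes of single genes could not be resolved.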
